A study of Mus musculus with 21 samples.

Results

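The liver makes most of the proteins that clot blood and most of the proteins of the complement system, and this report describes the mRNAs of 39 such genes, chosen by gene symbol in the probe annotation, in regenerating and in hyperplastic mouse liver. Of the 39 genes, 37 had a probe in the annotation used and all 37 were among the 11442 genes tested, while C3 and Cpb2 were not analysed here. The groups were livers taken 1, 3 and 6 h after removal of 70% of the liver mass (PH), livers taken at the same times after a single gavage of 3 mg/kg TCPOBOP (TCP), a ligand of the nuclear receptor CAR given in dimethyl sulphoxide and corn oil, and untreated control livers. All were from three-month-old female CD-1 mice, with 3 mice and 3 arrays in each of the 7 groups. Sham surgery, vehicle gavage and time-matched controls were not part of the design, so that anaesthesia, surgery, gavage, fasting and time of day cannot be told apart from PH or TCP in these comparisons. According to the labels the chip was a MouseRef-8, but the table holds 45281 probes, as does the larger WG-6 chip named in the methods.

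Clotting proceeds from the contact phase (factors XII and XI, plasma kallikrein and kininogen) and the tissue factor pathway (factor VII) through factor X to thrombin, which turns fibrinogen into fibrin. Antithrombin, heparin cofactor II, protein C and its cofactor protein S limit the process, and plasmin dissolves the clot. Complement is started by antibodies, by pentraxins or by mannose-binding lectins with their MASP proteases, runs through C2, C4 and C3, and ends with the membrane attack complex of C5b, C6, C7, C8 and C9. Hepatocytes secrete most of these proteins, and several of them, fibrinogen and the pentraxins among them, are acute-phase proteins whose genes respond to cytokines such as interleukin 6.

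Signals are given as log2 of the normalised intensity, and a change is the difference between the means of 3 arrays with the standard error (SE) of the limma fit, whose spread comes from all 21 arrays. To be called, a gene needed a change of at least 1.5-fold (0.58 on the log2 scale) and an adjusted p (Benjamini-Hochberg, over all genes tested) under 0.05. The words rise and fall are kept for called genes. Statements that arrays do not overlap, and counts of arrays above or below the controls, describe the gene named. The share of all genes was computed only where it is printed. The 6 comparisons against control share the same 3 control arrays, and their values are given side by side without a test of their likeness. All 37 genes were detected on 21 of 21 arrays, at a detection p under 0.05. The 21 arrays each had between 15982 and 17973 probes detected. The 10 hepatocyte marker genes were detected on every array of every group, and the log2 of their summed signal was 17.46 to 17.57 at 6 h after PH, 17.40 to 17.45 at 6 h after TCP and 17.23 to 17.55 in controls.

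Most of the genes were not called. Among the 37, 6 were called in at least 1 comparison (F11, Klkb1, Fgb, Pros1, Serpind1 and C8b) and 31 in none. At 6 h after PH, Fgb (fibrinogen beta chain) and Pros1 (protein S) rose, while F11 (factor XI) and Klkb1 (plasma kallikrein) fell. F11 also fell 3 h and 6 h after TCP, and C8b, a chain of complement C8, rose 1 h after PH. Serpind1 (heparin cofactor II) was lower 6 h after PH than 6 h after TCP and higher 6 h than 1 h after TCP.

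The counts stand beside the share of all genes tested that was called in the same comparison and direction. At 6 h after PH, 2 of 37 were called higher and 2 of 37 lower, against 8.79% and 11.9% of all genes. At 3 h after PH none of the 37 was called, against 3.92% of all genes higher and 3.52% lower; at an unadjusted p under 0.05, 3 of the 37 were higher and 2 lower, against 9.16% and 11.8% of all genes. At 1 h after PH, 1 of 37 was higher and 0 lower, against 0.297% and 0.236%. At that time 9 of the 37 were higher and 1 lower at an unadjusted p under 0.05, against 5.5% and 4.99% of all genes. After TCP, 0 were called at 1 h (0.0874% of all genes higher, 0.0524% lower; at an unadjusted p under 0.05, 0 of the 37 were higher and 2 lower, against 3.76% and 4%). At 3 h, 1 was lower and 0 higher (0.586% and 0.446% of all genes), and at 6 h again 1 was lower and 0 higher (2.94% and 2.72%). The share of the 37 called at 6 h after PH was 5.41% in each direction. Leaving out 1 array moved the total of 4 called genes over 2 to 6, so no difference from the share of all genes is drawn from these counts.

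**Figure D1:**
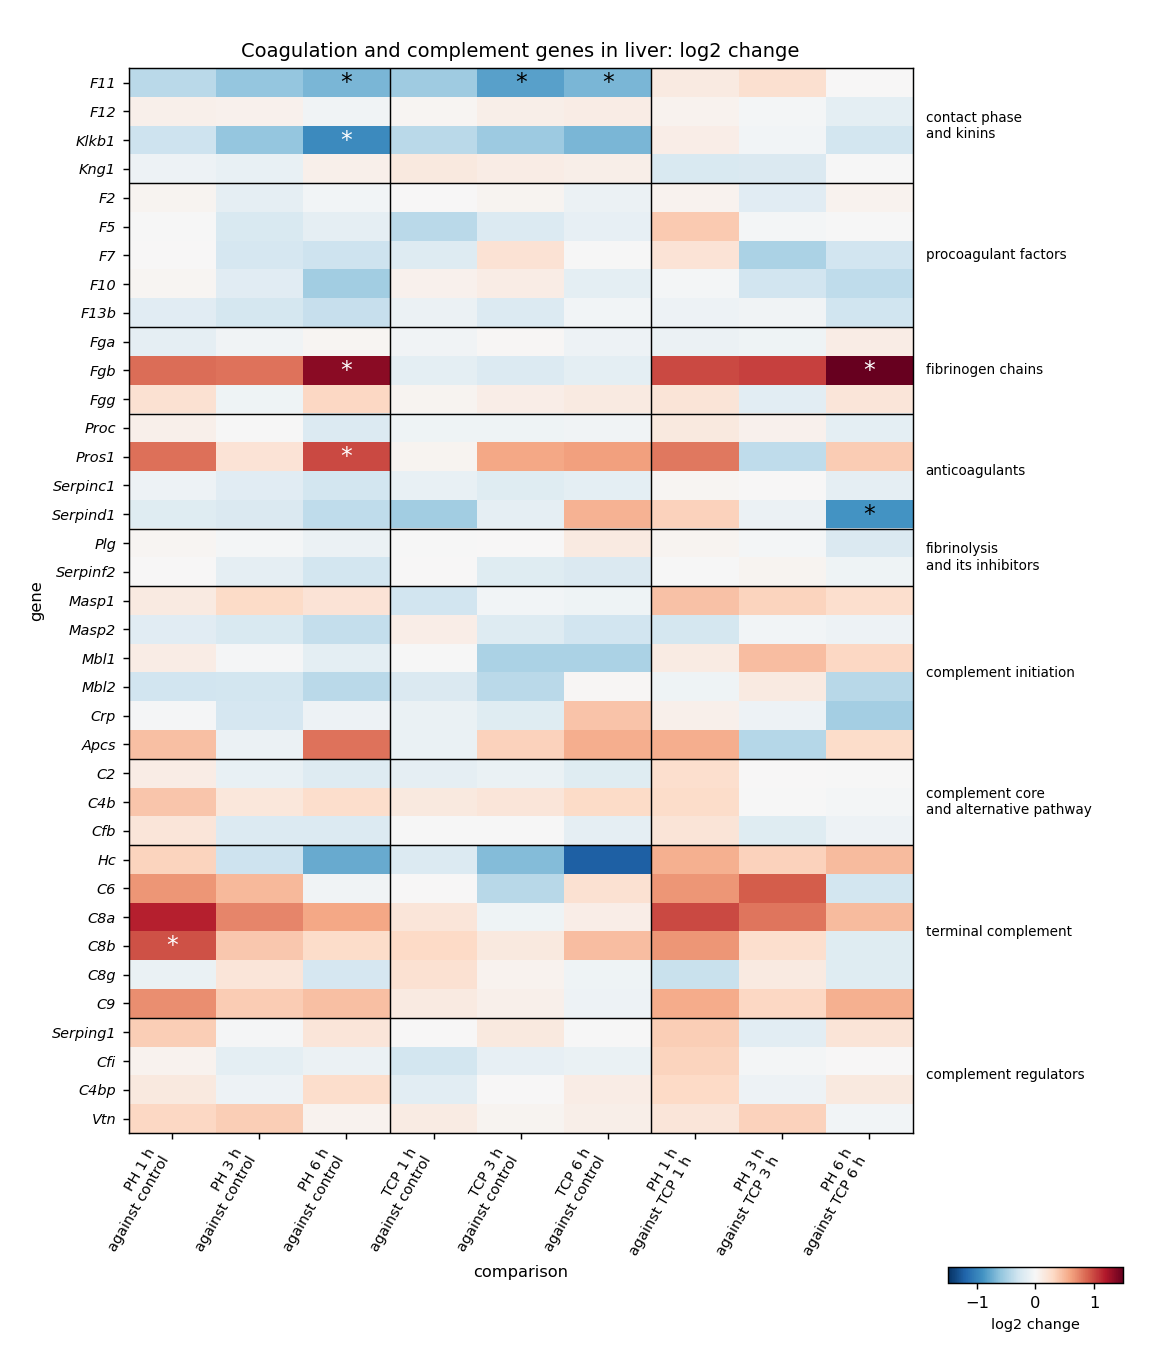
Log2 change (colour) of the 37 genes (rows, by role) in the comparisons against control and of PH against TCP (columns); an asterisk marks a called gene. F11 and Klkb1 are blue in all 6 columns against control, and the darkest asterisked cell is Fgb in PH 6 h against TCP 6 h, at 1.5.

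After PH the median change of the 37 was 0.08 at 1 h and -0.09 at both 3 h and 6 h, and after TCP it was -0.01, -0.04 and -0.05 in the same order of times, against medians between -0.08 and 0.00 over all genes tested. Without regard to sign, the median size of a change at 6 h after PH was 0.26 for the 37 and 0.34 for all genes, and at 6 h after TCP 0.13 and 0.24. The median SE was 0.17 for the 37 and 0.24 for all genes. The 95% interval of the change lay within 1.5-fold in both directions for 17 of the 37 genes at 6 h after PH and for 23 at 6 h after TCP. For the remaining genes without a call, the interval reached a 1.5-fold change, and these data do not show that their level was kept.

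**Figure D2:**
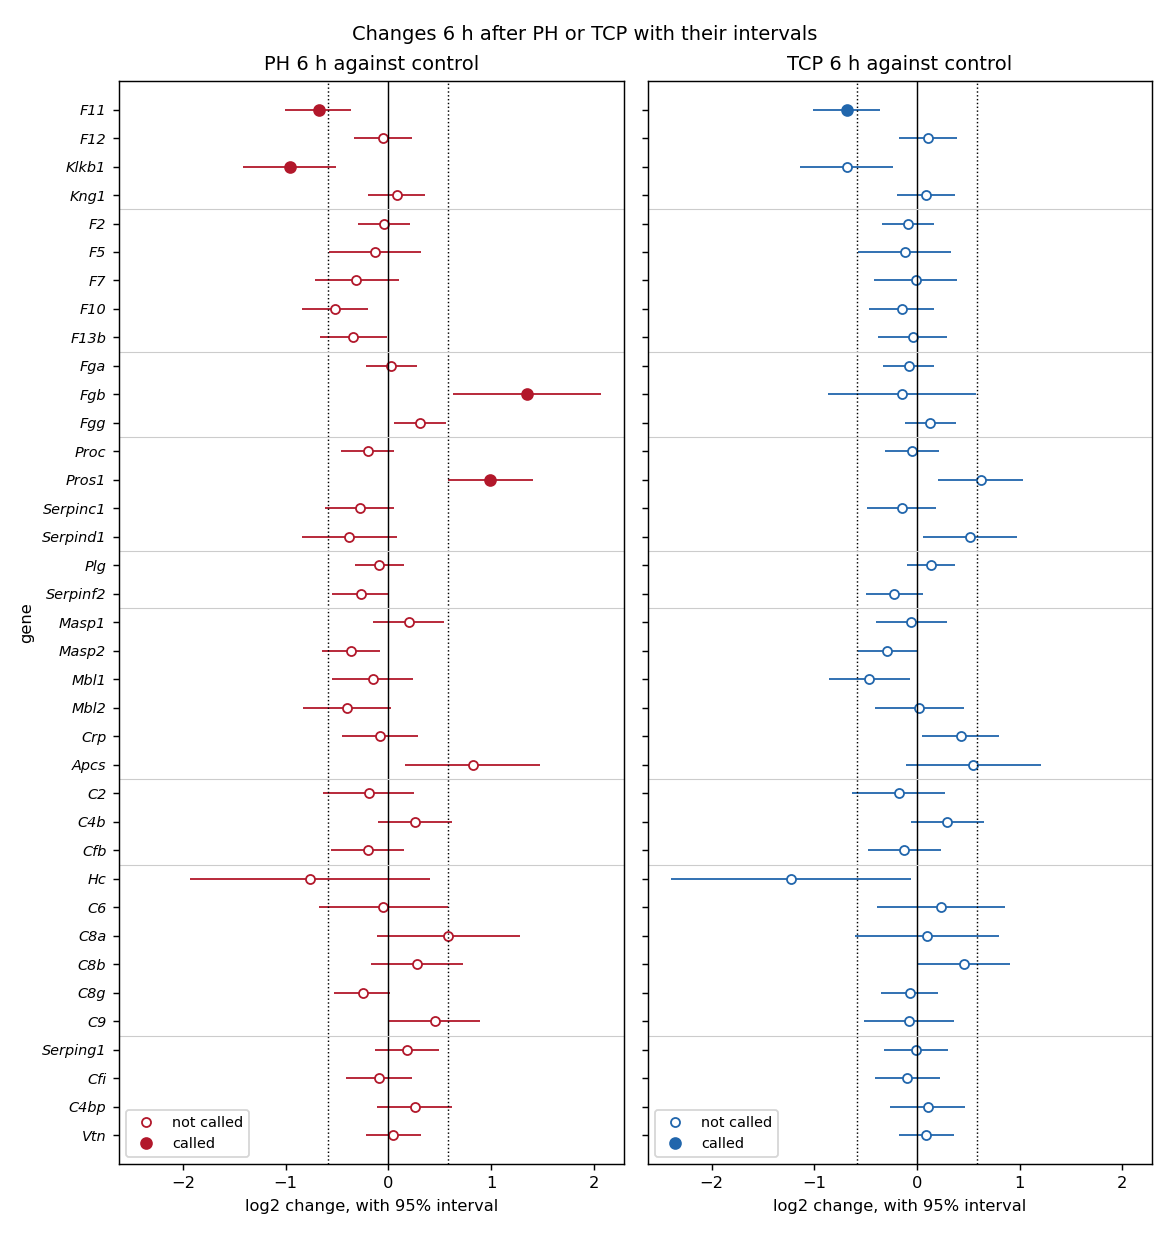
Log2 change (x axis) of each gene (rows) at 6 h after PH (left) and after TCP (right) against control, with the 95% interval of the limma fit as a bar; filled points are called genes and dotted lines mark 1.5-fold. The widest intervals are those of Hc, at -1.93 to 0.41 after PH and -2.40 to -0.06 after TCP.

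The contact phase genes F11, F12, Klkb1 and Kng1 held all 4 called falls against control, 3 of them of F11 and 1 of Klkb1. F11 and Klkb1 are paralogous serine proteases that are direct neighbours on mouse chromosome 8, with 0 coding genes between them in the RefSeq annotation (GRCm38.p6). Their promoters are printed because both fell after PH; the choice was made with their values known. The 250 bases before the annotated start of each gene, from RefSeq (GRCm38.p6, minus strand, written 5′ to 3′ in the direction of the gene), lie at chr8:45262032-45262281 (F11) and chr8:45294836-45295085 (Klkb1). Capitals mark matches, on either strand, to TTCNNNGAA (STAT palindrome), CTGGGAA (interleukin 6 response element), TTNNGNAAT (C/EBP), GTTAAT (HNF1 half-site) or CAAAGNNCA (HNF4 direct repeat), the first 2 of which can overlap.
F11: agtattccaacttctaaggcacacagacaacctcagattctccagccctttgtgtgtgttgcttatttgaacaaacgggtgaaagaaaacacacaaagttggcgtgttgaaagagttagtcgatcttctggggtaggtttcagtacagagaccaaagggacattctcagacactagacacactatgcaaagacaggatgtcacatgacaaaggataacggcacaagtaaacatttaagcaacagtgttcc
Klkb1: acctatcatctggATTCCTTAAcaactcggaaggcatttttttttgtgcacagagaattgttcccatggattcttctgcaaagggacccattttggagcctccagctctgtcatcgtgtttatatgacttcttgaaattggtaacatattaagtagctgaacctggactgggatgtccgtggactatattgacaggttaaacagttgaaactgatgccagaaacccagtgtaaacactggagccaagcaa
The F11 window held no match to these letters and the Klkb1 window 1 match to the C/EBP letters. Among 32851 promoter windows of the same length, 10.2% held the C/EBP letters, and 6 of the 31 windows of the genes described here did. A match is a description of letters and says nothing about binding.

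F11, whose product activates factor IX, had log2 signals of 11.68, 12.02 and 11.72 at 6 h after PH, against 12.71, 12.40 and 12.34 in the control livers. At 3 h after TCP its signals were 11.81, 11.57 and 11.63, and at 6 h after TCP 11.97, 12.04 and 11.40. None of these groups overlapped the controls, and the array of TCP 6 h replicate 3 was the lowest of the 21. The change was -0.68 (SE 0.16, limma adjusted p = 0.00338) at 6 h after PH, a 1.60-fold lower level. After TCP it was -0.82 (SE 0.16, limma adjusted p = 0.0112) at 3 h and -0.68 (SE 0.16, limma adjusted p = 0.0123) at 6 h, with 1.76-fold and 1.60-fold lower levels.

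The times without a call lay on the same side. F11 measured 12.10, 12.11 and 12.06 at 1 h after PH (change -0.40), 12.05, 11.88 and 11.79 at 3 h after PH (change -0.58, limma adjusted p = 0.0262, just short of 1.5-fold) and 12.01, 11.94 and 11.91 at 1 h after TCP (change -0.53). In all, 18 of 18 arrays of treated mice lay below all 3 controls. This held for F11 and Klkb1 among the 37, and for 90 (0.787%) of the 11442 genes tested. Between PH and TCP at 6 h the change of F11 was 0.00, with limma adjusted p = 0.998.

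The F11 calls leaned on control replicate 1, the highest array, and without it no call was kept. At 6 h after PH the change was then -0.57 (limma adjusted p = 0.03), just short of 1.5-fold. It was -0.70 at 3 h after TCP (adjusted p = 0.0976) and -0.57 at 6 h after TCP (adjusted p = 0.0845). The call at 3 h after TCP was also lost without control replicate 2 (-0.86, adjusted p = 0.0502) and that at 6 h after TCP without TCP 6 h replicate 3 (-0.48, adjusted p = 0.105). A block for the beadchip, the slide that holds several arrays, gave -0.53 (adjusted p = 0.0722) at 6 h after PH and -0.85 (adjusted p = 0.117) at 3 h after TCP, where the call was lost, and -0.88 (adjusted p = 0.0489) at 6 h after TCP, where it was kept. Set against the lone control of its own beadchip, F11 had changes of -0.54, -0.90 and -0.91 in that order, and none was called; the value for 3 h after TCP is 1 array against 1. Another F11 probe gave -0.54 at 6 h after PH, -0.91 at 3 h and -0.74 at 6 h after TCP, and a dim one -0.25, -0.55 and -0.32.

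Klkb1, whose product releases bradykinin from kininogen and activates factor XII, had log2 signals of 11.60, 11.93 and 10.74 at 6 h after PH, against 12.21, 12.54 and 12.40 in controls. All 3 PH arrays were below all 3 controls, and replicate 3 was far below the other 2. The change was -0.96 (SE 0.22, limma adjusted p = 0.00313), a 1.95-fold lower level, and without that replicate it was -0.62 with the call kept (adjusted p = 0.0209). A beadchip block gave -0.84 (adjusted p = 0.0504) and within beadchip 4 it was -0.98 (adjusted p = 0.55), neither called. A second Klkb1 probe gave the same change of -0.96. In PH 6 h against TCP 6 h that probe gave -0.61 (limma adjusted p = 0.0335 over all probes), past the threshold, where the brighter one gave -0.28 and was not called.

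At the earlier times Klkb1 had a change of -0.31 at 1 h and -0.58 at 3 h after PH, from signals of 12.13, 12.13 and 11.96 and of 11.86, 11.96 and 11.59. After TCP Klkb1 measured 11.82, 12.11 and 11.98 at 1 h (change -0.41), 12.15, 11.49 and 11.90 at 3 h (change -0.54) and 11.55, 11.91 and 11.65 at 6 h (change -0.68, limma adjusted p = 0.0691), and no TCP array reached the lowest control. Klkb1 was also lower 6 h than 1 h after PH, by a change of -0.65 (limma adjusted p = 0.0409), where 2 of 37 genes were called lower and 0 higher, against 10.3% and 7.39% of all genes. That call was lost in 5 of the 6 fits that left out 1 array, among them without PH 6 h replicate 3 (-0.31), and under a beadchip block (-0.36). All arrays of 1 h after PH were on beadchip 3 and all of 6 h on beadchip 4. Time and beadchip cannot be told apart in that direct comparison.

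The other contact phase genes were not called. F12 (factor XII) had changes between -0.05 and 0.11 in the 6 comparisons against control, and Kng1, which encodes kininogen, between -0.11 and 0.15. F12 measured 12.65, 12.74 and 13.05 at 6 h after PH and 12.73, 13.13 and 13.04 at 6 h after TCP, against 12.76, 12.85 and 12.96 in controls, with overlap of all groups. Its 95% interval at 6 h after PH was -0.33 to 0.23. Of 3 F12 probes the dimmest disagreed: it gave 0.47 at 6 h after PH and 0.41 at 6 h after TCP without a call, and 0.79 for 6 h against 1 h after PH (limma adjusted p = 0.0365 over all probes), past the threshold, where the brightest gave -0.13. Kng1 measured 15.31, 15.31 and 15.34 at 6 h after PH and 15.35, 15.35 and 15.29 at 6 h after TCP, against 15.32, 15.04 and 15.35 in controls. The Kng1 probe gave 67.4 to 99.6% of the highest raw signal of its array, where a rise could be compressed, and Kng1 shares sequence with its paralog Kng2, so its value is uncertain.

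**Figure D3:**
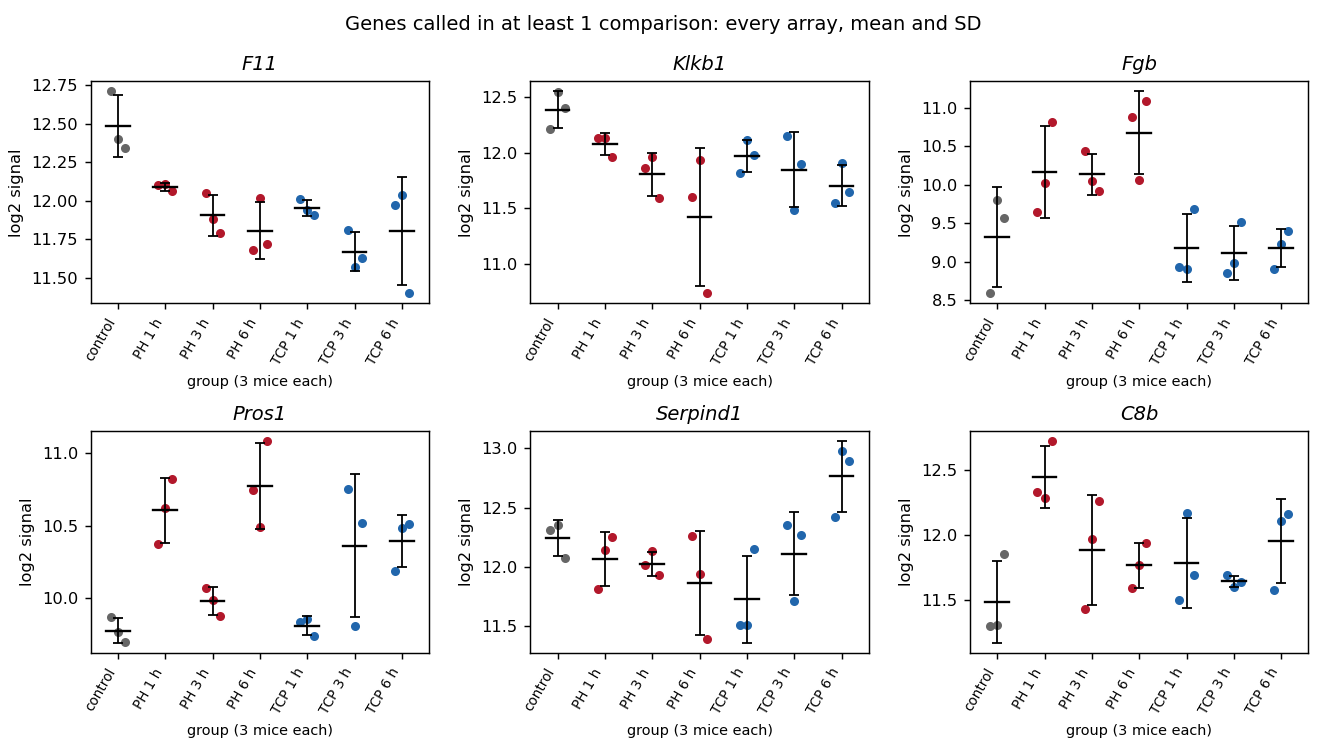
Log2 signal (y axis) of the 6 genes called in at least 1 comparison on every array (points), by group (x axis), with the mean (line) and SD (bar) of 3 mice. All 18 points of PH and TCP mice lie below the 3 controls for F11 and for Klkb1, and all 9 PH points lie above the controls for Pros1.

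Fibrinogen is built of an alpha, a beta and a gamma chain, whose genes Fga, Fgb and Fgg lie side by side on mouse chromosome 3 with 0 coding genes between them. Their promoters are shown because the 3 chains differed in these data, a choice made with their values known. The 250 bases before each start (RefSeq, GRCm38.p6) lie at chr3:83049864-83050113 on the minus strand for Fgb, at chr3:83025903-83026152 on the plus strand for Fga and at chr3:83007474-83007723 on the plus strand for Fgg, with the same letters in capitals as above.
Fgb: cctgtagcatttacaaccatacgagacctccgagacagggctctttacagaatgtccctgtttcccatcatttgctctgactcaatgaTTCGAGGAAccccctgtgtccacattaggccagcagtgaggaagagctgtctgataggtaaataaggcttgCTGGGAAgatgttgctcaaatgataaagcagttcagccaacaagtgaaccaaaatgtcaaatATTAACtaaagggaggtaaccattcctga
Fga: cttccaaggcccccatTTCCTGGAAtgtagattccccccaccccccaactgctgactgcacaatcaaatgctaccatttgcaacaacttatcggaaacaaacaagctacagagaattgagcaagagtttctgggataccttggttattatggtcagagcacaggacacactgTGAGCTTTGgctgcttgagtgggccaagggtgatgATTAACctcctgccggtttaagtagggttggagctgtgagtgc
Fgg: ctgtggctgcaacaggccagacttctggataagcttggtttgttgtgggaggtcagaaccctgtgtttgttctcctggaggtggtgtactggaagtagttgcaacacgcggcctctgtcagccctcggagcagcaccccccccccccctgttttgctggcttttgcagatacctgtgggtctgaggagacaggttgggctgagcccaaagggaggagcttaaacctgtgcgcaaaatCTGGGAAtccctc
The Fgb window held 1 match each to the STAT, interleukin 6 and HNF1 letters, the Fga window to the STAT, HNF1 and HNF4 letters, and the Fgg window to the interleukin 6 letters. Of all 32851 windows, 7.02% held the STAT letters, 9.1% the interleukin 6 letters, 6.43% the HNF1 letters and 5.49% the HNF4 letters. Of the 31 windows of 30 of the genes described here, 6, 4, 8 and 3 did. The nuclear receptor half-site AGGTCA, not capitalised above, stood in 10 of these windows and in 14% of all.

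Fgb had log2 signals of 10.88, 10.07 and 11.09 at 6 h after PH, against 8.59, 9.81 and 9.57 in controls, which did not overlap. The change was 1.35 (SE 0.34, limma adjusted p = 0.00803), a 2.55-fold higher level. Control replicate 1 was the lowest array of all 21, and without it the change was 0.99 with adjusted p = 0.0518, so that the call was lost. A beadchip block gave 1.10 (adjusted p = 0.0412) and within beadchip 4 it was 1.11 (adjusted p = 0.501).

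At 1 h after PH Fgb measured 9.65, 10.03 and 10.82 (change 0.84, limma adjusted p = 0.364), and at 3 h 10.44, 10.05 and 9.92 (change 0.81, limma adjusted p = 0.171). In all, 8 of 9 PH arrays were above the highest control. All 9 were above the controls in 2.95% of all genes tested, and the share with 8 of 9 was not computed. After TCP the 1 h arrays gave 8.93, 8.91 and 9.69, the 3 h arrays 8.85, 8.98 and 9.52, and the 6 h arrays 8.91, 9.23 and 9.40. All 9 were inside the range of the controls, with changes of -0.15, -0.21 and -0.15.

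Between the treatments at 6 h, where PH and TCP were compared directly, Fgb was higher after PH by 1.5 (SE 0.34, limma adjusted p = 0.00755), or 2.82-fold, and the groups did not overlap. It was called in each of the 6 fits that left out 1 array, at 1.29 to 1.80. PH and TCP arrays of 1 time never shared a beadchip, and under a beadchip block the difference was 0.47 (SE 0.45, adjusted p = 0.814). In this comparison 1 of 37 genes was called higher and 1 lower, against 4.65% and 5.43% of all genes. At 1 h and 3 h the difference for Fgb was 0.99 and 1.02 without a call (limma adjusted p = 0.315 and 0.104). None of the 37 was called at these times, at which 0.236% and 2.57% of all genes were higher and 0.0524% and 1.68% lower after PH. At an unadjusted p under 0.05, 9 of the 37 were higher and 1 lower after PH at 1 h, against 5.31% and 3.61% of all genes, and 5 were higher and 1 lower at 3 h, against 8.98% and 9.1%. The 1 h comparison uses the same PH arrays as that of PH 1 h against control.

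The alpha and gamma chains differed from Fgb in size of change. Fgg measured 14.24, 14.16 and 14.41 at 6 h after PH, against 13.99, 13.90 and 14.00 in controls, which did not overlap, and the change was 0.31 (SE 0.12, 95% interval 0.06 to 0.56, limma adjusted p = 0.0659). Fga measured 15.41, 15.36 and 15.23 against 15.29, 15.35 and 15.28, with a change of 0.03 (95% interval -0.22 to 0.28). The Fga probe gave 69.2 to 98.4% of the highest raw signal of its array, so that a rise of Fga could be compressed. Fgg gave 30 to 50.2%, and the single probe of Fgb was far dimmer, at 1.12 to 4.17%. Fgb also had the larger residual SD, 0.47, against 0.14 for Fga and 0.12 for Fgg. Sizes of change from probes so unlike in brightness may not be comparable. The difference between the chains was not tested.

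Among the anticoagulants, Pros1 was called against control. It encodes protein S, made by hepatocytes and also by endothelial cells and megakaryocytes. It had log2 signals of 10.74, 10.49 and 11.08 at 6 h after PH, against 9.87, 9.77 and 9.70 in controls. The change was 0.99 (SE 0.20, limma adjusted p = 0.00112), a 1.99-fold higher level, without overlap. It was called in each of the 6 fits that left out 1 array (0.84 to 1.13), and under a beadchip block (1.18, adjusted p = 0.00493), but not within beadchip 4 (1.07, adjusted p = 0.44).

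The time course of Pros1 after PH was not even. Signals were 10.37, 10.62 and 10.82 at 1 h (change 0.83, limma adjusted p = 0.0606) but 10.07, 9.99 and 9.88 at 3 h (change 0.20, limma adjusted p = 0.638). All 9 PH arrays were above the highest control, as in 2.95% of all genes tested. After TCP the changes were 0.04, 0.58 and 0.62 at 1, 3 and 6 h, without a call; at 6 h the arrays, at 10.19, 10.48 and 10.51, were all above the controls (limma adjusted p = 0.0686), and at 3 h replicate 2, at 9.81, was within them while the other arrays were at 10.75 and 10.52. Without that replicate the change at 3 h was 0.86 and called (adjusted p = 0.0342).

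Markers of endothelial cells and platelets, and of neutrophils, which are not named above as a source of protein S, moved as follows. The counts at 6 h after PH stand beside 8.79% of all genes that rose and 11.9% that fell. Of 9 sinusoidal endothelial markers, 4 rose and 1 fell at 6 h after PH, and the log2 of their summed signal was 11.68 to 12.78, against 12.35 to 12.56 in controls. Of 6 platelet markers, Pf4 rose (1.04, limma adjusted p = 0.0178), with a summed signal of 7.78 to 8.11 against 7.71 to 7.90. Of 7 neutrophil markers 3 rose, with a summed signal of 9.14 to 9.90 against 7.47 to 7.63. Their part in the values of Pros1, or of any other gene here, was not tested, and in whole liver more cells of a type and more RNA per cell cannot be told apart.

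Serpind1 encodes heparin cofactor II, an inhibitor of thrombin. Its log2 signals were 12.26, 11.94 and 11.39 at 6 h after PH, against 12.42, 12.98 and 12.89 at 6 h after TCP, so that all PH arrays were below all TCP arrays. The difference was -0.90 (SE 0.22, limma adjusted p = 0.00988), a 1.86-fold lower level after PH. Controls lay between, at 12.31, 12.35 and 12.07, and neither treatment was called against them (PH -0.38, limma adjusted p = 0.229; TCP 0.52, limma adjusted p = 0.175). The call between the treatments was lost without PH 6 h replicate 3 (-0.66, adjusted p = 0.0597), without TCP 6 h replicate 2 (-0.79, adjusted p = 0.0568) and under a beadchip block (-0.87, adjusted p = 0.412).

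Within the TCP series Serpind1 measured 12.42, 12.98 and 12.89 at 6 h, against 11.51, 11.51 and 12.15 at 1 h. It was higher at 6 h than at 1 h by 1.04 (SE 0.22, limma adjusted p = 0.00754), a 2.06-fold higher level without overlap. In this comparison 1 of 37 genes was called higher and 0 lower, against 3.09% and 3.4% of all genes. The call was kept in each of the 6 fits that left out 1 array (0.93 to 1.25) and lost under a beadchip block (0.69, adjusted p = 0.589). The arrays of 6 h and of 1 h after TCP shared no beadchip, so that time and beadchip cannot be told apart. At 3 h after TCP the arrays were spread over 12.35, 11.71 and 12.27.

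The remaining anticoagulants were not called. Serpinc1 (antithrombin) had changes of -0.28 to -0.08 in the 6 comparisons against control, and Proc (protein C) of -0.20 to 0.08. Serpinc1 measured 10.83, 10.83 and 10.22 at 6 h after PH and 10.64, 10.92 and 10.71 at 6 h after TCP, against 10.90, 10.85 and 10.96 in controls, with PH replicate 3 the lowest. Proc measured 13.24, 13.44 and 13.30 at 6 h after PH and 13.48, 13.48 and 13.49 at 6 h after TCP, against 13.57, 13.52 and 13.49 in controls. A second, dimmer Serpinc1 probe gave -0.62 at 6 h after PH (limma adjusted p = 0.0267 over all probes), past the threshold where the brighter one, at -0.28, was not, and the 2 probes disagree. In PH 3 h against TCP 3 h the dimmer one gave -0.70 (limma adjusted p = 0.0436 over all probes) and the brighter one 0.01.

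No procoagulant factor outside the contact phase was called by limma in any comparison; 2 of 5 were lower at 6 h after PH at an unadjusted p under 0.05, as were 20.5% of all genes. Changes of all 5 were below 0 at 6 h after PH, at -0.04 for F2 (prothrombin), -0.13 for F5 (factor V), -0.31 for F7 (factor VII), -0.34 for F13b (the carrier subunit of factor XIII) and -0.52 for F10 (factor X). F10 had an adjusted p of 0.0176 with limma but did not reach 1.5-fold. Its log2 signals were 12.77, 13.23 and 12.93 at 6 h after PH, against 13.62, 13.40 and 13.48 in controls, without overlap, and 13.44, 13.16 and 13.46 at 6 h after TCP. F10 measured 13.49, 13.32 and 13.79 at 1 h after PH, and the change of 6 h against 1 h after PH was -0.56 (limma adjusted p = 0.0147), again short of 1.5-fold. Without PH 6 h replicate 2, F10 was called at 6 h after PH, at -0.65 (adjusted p = 0.00601). The 95% interval of F2 at 6 h after PH was -0.30 to 0.21.

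The fibrinolysis genes were not called. Plg (plasminogen) had the smallest residual SD of the 37, at 0.11, and changes between -0.09 and 0.14 against control. Its 95% interval was -0.32 to 0.15 at 6 h after PH and -0.10 to 0.37 at 6 h after TCP. These values are those of the brightest Plg probe, and the dimmer ones gave 0.40, 0.10 and 0.13 at 6 h after PH. For 6 h against 1 h after TCP the dimmer ones gave 0.92, 0.01 and -0.58, where the brightest gave 0.15. None of these was called. Serpinf2, which encodes the plasmin inhibitor alpha 2-antiplasmin, had changes of -0.27 to 0.01 and a residual SD of 0.16.

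The terminal complement genes were the role group with the highest median change 1 h after PH, at 0.68 over 6 genes, with 1 called. The other role groups had medians of -0.20 to 0.23. Lists of other genes had medians at that time from -0.21 (red blood cell markers) to 0.73 (Kupffer cell and macrophage markers). Further complement genes that are not members had a median of 0.31. C8b encodes the beta chain of C8. It had log2 signals of 12.33, 12.28 and 12.72 at 1 h after PH, against 11.30, 11.31 and 11.85 in controls, without overlap. The change was 0.96 (SE 0.22, limma adjusted p = 0.0445), a 1.94-fold higher level. This call lay close to the threshold: it was lost without control replicate 1 (0.87), control replicate 2 (0.87), PH 1 h replicate 2 (1.04) or PH 1 h replicate 3 (0.82), with adjusted p from 0.0685 to 0.269. A beadchip block gave 1.19 (adjusted p = 0.193) and within beadchip 3 it was 1.14 (adjusted p = 0.362).

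C8b measured 11.59, 11.77 and 11.94 at 6 h after PH, all below the 3 arrays of 1 h after PH, and the change of 6 h against 1 h was -0.68 (SE 0.22, limma adjusted p = 0.0303). Of the 6 fits that left out 1 array, 4 lost that call (without PH 1 h replicate 1, PH 1 h replicate 3, PH 6 h replicate 1 or PH 6 h replicate 2, at -0.74, -0.54, -0.59 and -0.68), and it was lost under a beadchip block (-1.16, adjusted p = 0.139). The arrays of 6 h and of 1 h after PH shared no beadchip, so that time and beadchip cannot be told apart. Against control the 6 h change of C8b was 0.28. At 3 h the arrays were spread over 11.43, 11.97 and 12.26. After TCP C8b had changes of 0.30, 0.15 and 0.46 at 1, 3 and 6 h.

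C8a, which encodes the alpha chain of C8 and is the direct neighbour of C8b on mouse chromosome 4, measured 11.12, 10.84 and 11.98 at 1 h after PH, against 9.90, 9.98 and 10.55 in controls. These did not overlap, and the change of 1.17 (SE 0.33) was the highest of the 37 at that time, but the arrays were spread widely and limma adjusted p = 0.138 gave no call. At 3 h and 6 h after PH its changes were 0.73 and 0.58, and after TCP 0.18, -0.07 and 0.10. C8g, the gamma chain, coded elsewhere in the genome, had a change of -0.10 at 1 h after PH (14.39, 14.42 and 13.87 against 14.33, 14.30 and 14.35), with a 95% interval of -0.37 to 0.18.

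C9 and C6 measured higher than controls at 1 h after PH without a call. C9, the pore-forming component, measured 12.66, 13.04 and 13.12 against 12.06, 12.06 and 12.58 (change 0.70, limma adjusted p = 0.158). Of its 9 PH arrays, 7 were above all controls, a count not made over all genes. C6 measured 8.95, 7.83 and 8.53 against 7.88, 7.89 and 7.55, which overlap (change 0.66, limma adjusted p = 0.442). A second, dimmer C6 probe gave 1.15 at 1 h after PH, and 1.12 at 3 h with the threshold passed over all probes (limma adjusted p = 0.0386), where the brighter probe gave 0.49.

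Hc, which encodes complement C5, varied most of the 37, with a residual SD of 0.70. Its signals 6 h after PH were 10.07, 9.89 and 12.05, against 11.14, 11.33 and 11.82 in controls, so that replicate 3 lay above all controls and the other arrays below them. The change was -0.76 (SE 0.55, limma adjusted p = 0.359), and without replicate 3 it was -1.45 and called (adjusted p = 0.0433). Hc measured 9.93, 10.13 and 10.53 at 6 h after TCP, all below the controls, and the change was -1.23 (SE 0.55, limma adjusted p = 0.216). At 1 h after PH it measured 12.11, 12.01 and 11.14, and at 3 h 10.06, 11.64 and 11.66, so that arrays of 1 group differed by more than the group means.

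**Figure D4:**
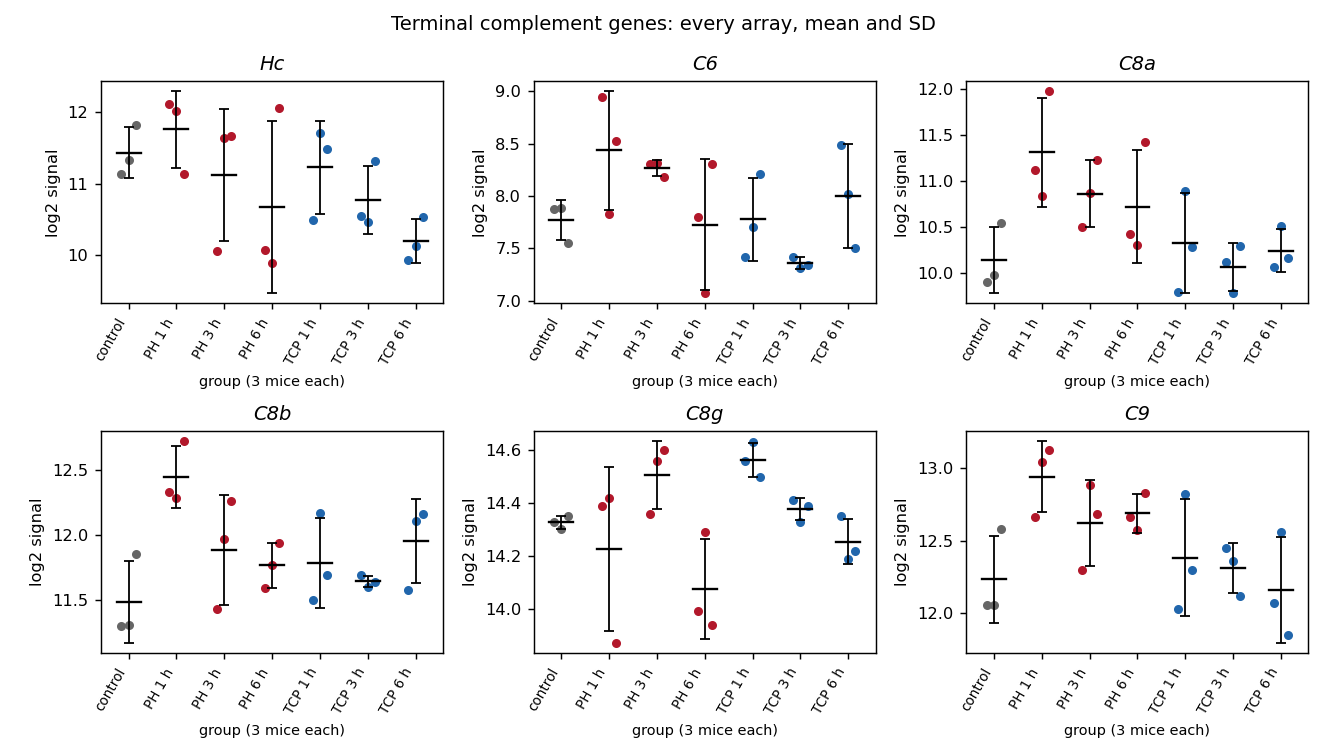
Log2 signal (y axis) of the 6 terminal complement genes on every array (points), by group (x axis), with the mean (line) and SD (bar) of 3 mice. The PH 1 h points of C8a, C8b and C9 lie above all controls, and those of C6, C8g and Hc overlap them. The share of all genes with PH 1 h points above all controls was not computed. Points of Hc are spread widely within its groups.

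None of the complement genes outside the terminal pathway was called by limma in any comparison, while at an unadjusted p under 0.05 in PH 6 h against control 1 of the 6 initiation genes was higher and 1 lower, against 14.2% and 20.5% of all genes. Among the genes of initiation, Apcs, which encodes serum amyloid P component, the main acute-phase pentraxin of the mouse, measured 13.75, 13.49 and 14.34 at 6 h after PH, against 13.07, 13.24 and 12.82 in controls, without overlap (change 0.82, SE 0.31, limma adjusted p = 0.069). Without PH 6 h replicate 2 its change was 1.00 and called (adjusted p = 0.0436). Its neighbour Crp (C-reactive protein) had a change of -0.08 at 6 h after PH and 0.43 at 6 h after TCP, with a difference of PH against TCP of -0.51 (limma adjusted p = 0.0718). Mbl1 and Mbl2, the mannose-binding lectins, had changes of -0.15 and -0.40 at 6 h after PH and of -0.47 and 0.02 at 6 h after TCP. The protease genes Masp1 and Masp2 had changes of 0.20 and -0.36 at 6 h after PH (limma adjusted p = 0.0588 for Masp2). By its brightest probe, all 9 PH arrays of Masp2 were below the controls, as in 4% of all genes tested. Its dimmer probes gave -0.17, -0.83 and 0.66 at 6 h after PH without a call. None of these had all 9 PH arrays below the controls.

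Of the core components, C2 had changes of -0.19 to 0.11 against control, Cfb (factor B of the alternative pathway) of -0.20 to 0.18 and C4b of 0.15 to 0.42. Both dimmer C4b probes gave more at 6 h after PH, 1.07 and 0.86 against 0.26 for the brighter one, without a call (limma adjusted p = 0.0775 and 0.11). C4b and its near-identical copy C4a cannot be told apart with certainty by such probes. The regulators Serping1 (C1 inhibitor), Cfi (factor I), C4bp (C4b-binding protein) and Vtn (vitronectin) had changes between -0.27 and 0.37 in the 6 comparisons against control. The 0.37 of Serping1 at 1 h and the 0.37 of Vtn at 3 h after PH were the highest, with limma adjusted p = 0.345 and 0.0848, and the Vtn probe gave 47.1 to 83.3% of the highest raw signal of its array.

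The 12 called changes are set beside their values under other settings in the plot of alternatives. All plotted values lay on the same side of 0 as the change from all arrays. Under the beadchip block 3 of the 12 were called (Fgb and Pros1 at 6 h after PH and F11 at 6 h after TCP), and without control replicate 1 the calls of Klkb1 and Pros1 at 6 h after PH were the 2 kept of the 7 against control. The block also raised the SE, by a median ratio of 1.13 to 1.34 against control and 1.52 to 1.65 in the other comparisons. Among the lost calls, some changes were larger under the block (C8b at 1 h after PH, 1.19). Others were smaller (Fgb in PH 6 h against TCP 6 h, 0.47).

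**Figure D5:**
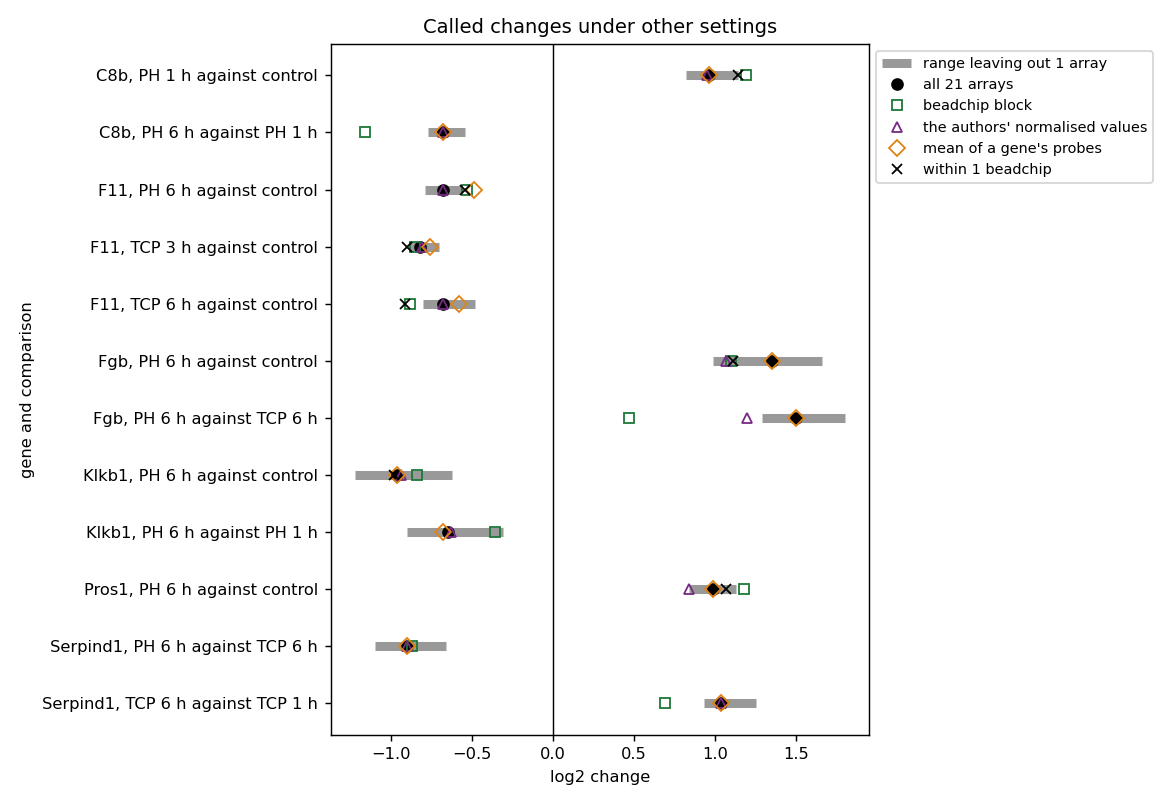
Log2 change (x axis) of each called gene and comparison (rows) from all 21 arrays (black points), with the range over fits that left out 1 array (grey bars) and the values under a beadchip block (squares), from the authors' normalised values (triangles), from the mean of a gene's probes (diamonds) and within 1 beadchip (crosses). No mark crosses 0, and the value that moves furthest is Fgb in PH 6 h against TCP 6 h, at 0.47 under the block.

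Other genes of the same systems, from lists that are not members, give the setting. Of all genes tested, 8.79% rose and 11.9% fell at 6 h after PH, and 2.72% rose and 2.94% fell at 6 h after TCP. Of 23 further coagulation and fibrinolysis genes tested, 3 rose and 2 fell at 6 h after PH. The rises of largest size were those of Thbd (thrombomodulin, 3.46, limma adjusted p = 3.41e-05) and Plat (tissue plasminogen activator, 1.95, limma adjusted p = 0.0362), and the falls were those of Vkorc1 (vitamin K epoxide reductase, -0.85, limma adjusted p = 0.000906) and Proz (protein Z, -0.67, limma adjusted p = 0.000646). After TCP the single call of this list at 6 h was a fall of Vkorc1 (-0.59, limma adjusted p = 0.0361). Of 18 further complement genes, C1rl alone was called at 6 h after PH, with a fall (-0.99, limma adjusted p = 0.00107). Of 28 further acute-phase genes, 6 rose at 6 h after PH, Cd14 (5.59) and Saa2 (5.57) by the most, and their median change was 0.26, with 0.04 at 6 h after TCP.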

How the data were processed

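Liver RNA of 21 mice was measured on Illumina beadchips. The authors read the arrays with BeadStudio and deposited, per probe and array, a non-normalised signal intensity with a detection p-value. The authors also deposited log2 values normalised between arrays, which were used as an alternative. The probe annotation gave 34885 probes 1 gene symbol; 18 had several and 10378 none. Background correction by detection p (offset 16), quantile normalisation and the log2 step were done with neqc (limma 3.58.1, R 4.3.3). For testing, 17970 probes remained that had 1 symbol and were detected (p under 0.05) on 3 arrays or more. A gene with several probes was given by its brightest one, which left 11442 genes; 66 of 68 probes of the genes described here were kept, 18 genes having several and 19 having 1.

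A limma model with 7 groups (lmFit, eBayes with trend and robust) was fitted on all genes and checked on simulated data. The p-values measure the spread between 3 mice per group, and the number of arrays limits the precision. By the rule for named genes, array values are given for genes called against control and for genes of their role group beside them. Other genes are given by counts and ranges. Serpind1 is in the role group of Pros1, while array values of F10 and Apcs lie outside the rule. These and the fuller account of Serpind1 were added after their values were seen. Alternatives changed the background correction, the filters, the probe rule, the variance model and the blocks, or left out 1 array. The genes and lists were chosen with earlier results of these data known. MicroRNA data were not used here.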

Additional observations from a re-analysis of the deposited data

Results flagged for a closer look

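A pair of genes differed between the treatments in the direct comparison of PH 6 h with TCP 6 h. Fgb was higher after PH by 1.5 on the log2 scale (limma adjusted p = 0.00755), with 3 of 3 PH arrays above all TCP arrays. Serpind1 was lower after PH, with a difference of -0.90 (limma adjusted p = 0.00988), and 3 of 3 PH arrays were below all TCP arrays. The arrays of the treatments at 6 h lay on different beadchips, and under a beadchip block the differences were 0.47 and -0.87, neither called.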

How the results depend on the processing

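No call among the 37 genes changed direction under the alternatives run. Of the 12 calls, 11 were kept with quantile normalisation without background correction, 11 on the authors' normalised values, 11 without the detection filter, 9 with the mean of a gene's probes, 10 without the variance trend, 12 with the beadchip as a random block, 12 with the replicate number as a block, and 3 with the beadchip as a fixed block. The random block estimated a correlation of -0.02 between arrays of the same beadchip. That fit was thus close to the fit without a block, and its 12 kept calls say little about a beadchip effect. The fixed block raised the SE, as given with the plot of alternatives. Of the 7 calls against control, 0 were kept within a beadchip, where 1 control array stands alone (for TCP 3 h, 1 TCP array as well) and is assumed to vary like the other groups. The variance trend, single probes and the arrays left out by name were alternatives added after seeing the data. The filter of the methods left 4 of the 37 genes, and the 4 calls among these were kept. At 1 h after PH the count of called genes was 0 with quantile normalisation alone, the authors' values, the methods' filter, the mean of probes, the beadchip block, within beadchip 3 and without the trend, and 2 with the replicate block, where C8a was added (1.17, adjusted p = 0.0454). At 6 h after PH it was 1 with the methods' filter, 2 with the beadchip block and 0 within beadchip 4. At 3 h after TCP it was 0 with the methods' filter, the beadchip block and within beadchip 1, and at 6 h after TCP 0 with the methods' filter, the mean of probes and within beadchip 1. The count of PH 6 h against TCP 6 h was 0 with the beadchip block. That of PH 6 h against PH 1 h was 0 with the methods' filter and the beadchip block, and 1 without the detection filter and without the trend. That of TCP 6 h against TCP 1 h was 0 with the beadchip block.

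Leaving out 1 array in turn, the counts ranged over 0 to 2, 0 to 1 and 2 to 6 after PH (times of 1, 3 and 6 h), and 0 to 0, 0 to 2 and 0 to 1 after TCP. They ranged over 0 to 0, 0 to 1 and 2 to 2 for PH against TCP at these times, 0 to 3 for PH 6 h against PH 1 h and 1 to 1 for TCP 6 h against TCP 1 h. The shared replicate numbers did not pair the samples: correlations of the deviations of same-numbered arrays were -0.24 to 0.13. PH and TCP arrays of the same time were on different beadchips. So were the arrays of 6 h and 1 h after PH, and those of 6 h and 1 h after TCP. With 3 arrays a group, a change of -1.23 in Hc at 6 h after TCP (SE 0.55) was not called, and probes near the top of the signal range (Fga, Kng1, Vtn) may understate a rise.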
